A study of Danio rerio with 170 samples.

Results

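The genes described here are those of the Notch pathway core and its her/hes/hey effectors in whole zebrafish embryos exposed to per- and polyfluoroalkyl substances (PFAS). Members were taken by gene symbol, as names that begin with notch, dll, jag, her or hes and a number, names that begin with hey, the ligands dla to dld, and the fringe genes lfng, mfng and rfng. Upper and lower case counted alike, because the reference table writes the human counterpart's name in capitals where it pairs an identifier with no zebrafish symbol. The rule found 41 of 27904 genes in the 48 hpf count table (4 receptors, 9 ligands, 3 fringe genes and 25 repressors) and 40 of 26992 genes in the table of the NB2 time course (4, 9, 3 and 24). One further match, DLD (ENSDARG00000008785), carries the human name of dihydrolipoamide dehydrogenase, an enzyme of mitochondrial metabolism, and was set aside. Its log2 fold change lay between -0.16 and 0.12 over the 15 PFAS, with no call. Of the members at 48 hpf 40 were tested, and her1, with 34 counts over 70 libraries, was not.

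All embryos were wild-type Tropical 5D zebrafish, kept from 6 hours post fertilization (hpf) in 1% DMSO with or without a PFAS. At 48 hpf the exposed groups were PFAS 1 (100 µM), PFAS 2 (30 µM), PFAS 3 (13.8 µM), PFAS 4 (50 µM), PFAS 5 (100 µM), PFAS 6 (100 µM), PFAS 7 (39.7 µM), PFAS 8 (53 µM), PFAS 9 (62 µM), PFAS 10 (8 µM), PFAS 11 (28 µM), PFAS 12 (100 µM), PFAS 13 (25 µM), PFAS 14 (20 µM) and PFAS 15 (20 µM). Every exposed group held 4 libraries, apart from PFAS 5 with 3 because its replicate 1 was left out, and each library came from a pool of 10 whole embryos. PFAS 2, 4, 14 and 15 belonged to Exposure Round 2 (1 collection day, 4 DMSO controls), and the others to Exposure Round 1, whose 6 DMSO controls came from 6 collection days. PFAS 2 is Nafion byproduct 2 (NB2), and its time course used 73 µM NB2 and DMSO controls (Control-C) at 48, 72 and 96 hpf in pools of 8, with 4 columns a group at 48 hpf and 5 at 72 and 96 hpf. Library totals ran from 14265378 to 30363275 counts (median 23754031). A pool is a mixture of every tissue, so fewer cells of a type and less RNA per cell cannot be told apart, and p-values measure the spread between pools.

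Notch receptors are cut after binding Delta or Jagged ligands on a neighbouring cell, and the freed intracellular part joins the DNA-binding protein RBPJ to switch on genes such as those of the her/hes/hey family. The products of that family are basic helix-loop-helix repressors, which in the developing brain and spinal cord hold progenitor cells back from becoming neurons by repressing proneural genes. The same signalling patterns blood vessels and sets the segmentation clock of the early somites. Fringe enzymes add sugars to the receptors and so shift which ligand they answer to.

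At 48 hpf members were called in the 6 exposures PFAS 8 to 13, with 1 further call in PFAS 6. Over PFAS 8 to 13, 120 member differences were called (edgeR, adjusted p under 0.05) and 119 of them were rises. In PFAS 8, 20 of 40 members rose, where 3.84% of the 21928 genes tested were called (2.1% higher, 1.74% lower). In PFAS 9, 22 rose, against a background of 6.9% of genes (3.06% higher, 3.84% lower). In PFAS 10, 15 rose, and in PFAS 11, 22. Of all genes 14.1% were called in PFAS 10 (7.26% higher, 6.83% lower) and 14.1% in PFAS 11 (6.58% higher, 7.52% lower). In PFAS 12, 16 members rose and 1 fell, with 14.2% of genes called (6.77% higher, 7.47% lower). In PFAS 13, 24 rose, with 16.2% of genes called (7.63% higher, 8.52% lower). In each of these exposures the share of members that rose was thus above the share of all genes that rose.

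Over the 40 members the median log2 fold change was highest in PFAS 13 (0.65) and PFAS 11 (0.64), followed by PFAS 8 (0.57), PFAS 9 (0.57), PFAS 12 (0.47) and PFAS 10 (0.35). Over all genes the median lay between -0.022 (PFAS 10) and -0.00607 (PFAS 11). PFAS 8 to 13 share the same 6 controls, so a control value that is high or low enters all 6 comparisons. Doses differed between exposures.

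Of the 40 members, 8 rose in all of PFAS 8 to 13. These were the receptors NOTCH3 and NOTCH1 (ENSDARG00000103554), the ligands dlb, jag1a and both DLL1 genes, the fringe gene LFNG and the repressor her4.1. With single libraries left out in turn, jag1a in PFAS 8 and DLL1 (ENSDARG00000020219) in PFAS 12 each lost the call in 7 of 10 fits. For her4.1 in PFAS 10 it was 5 of 10. A further 19 members were called in at least 1 exposure, and 13 in none of the 15 PFAS. The matching shares of all genes were not counted, so no background stands beside these counts.

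**Figure D1:**
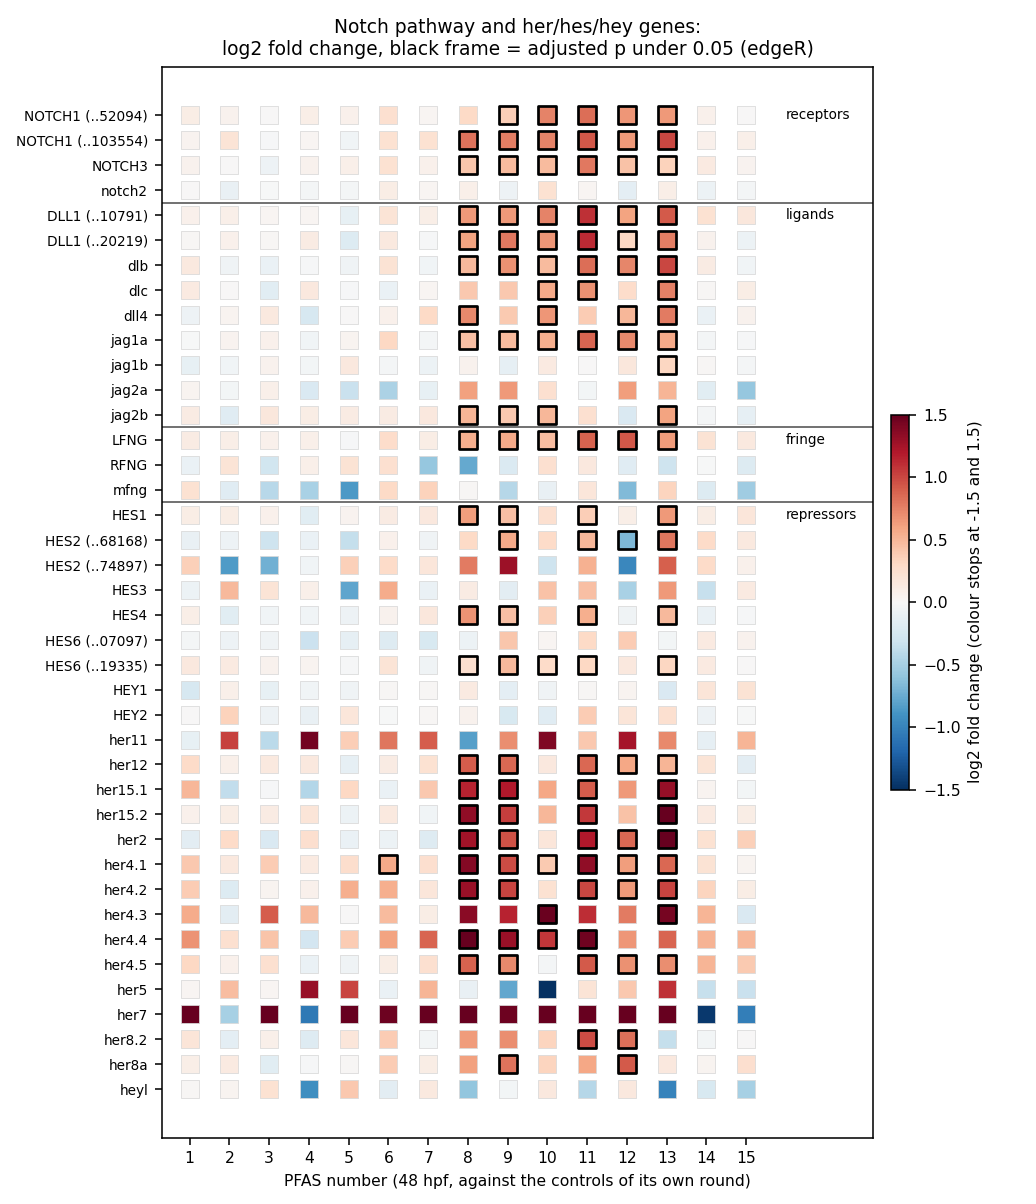
Log2 fold change of the 40 tested members (rows, grouped as receptors, ligands, fringe genes and repressors) in each of 15 PFAS (columns) against the controls of its own round at 48 hpf. Colour gives the log2 fold change and a black frame a call by edgeR. Frames lie in the columns of PFAS 8 to 13, where 119 of 120 calls were rises, and only her4.1 is framed elsewhere, in PFAS 6.

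Among the other 9 exposures only PFAS 6 had a member called, her4.1, one of the Notch targets of neural progenitors (0.105% of all genes were called in PFAS 6). It measured 32.4, 28.8, 25.6 and 34.1 CPM (counts scaled to library size by TMM) in the PFAS 6 libraries, against a lowest, median and highest level of 15.4, 20.5 and 24.3 CPM in the Round 1 controls. All 4 exposed libraries thus lay above the 6 controls. Its log2 fold change was 0.57 ± 0.13 (standard error, edgeR adjusted p = 0.033). The call was lost without control replicate 2, 3 or 4 or without PFAS 6 replicate 1, 2 or 4 (log2 fold change over all leave-outs 0.51 to 0.65, largest adjusted p = 0.28), and it was also lost in a fit of only the groups compared. Of the 40 members in PFAS 6, 31 had a positive log2 fold change (median 0.18). In the exposures without a member call the number ran from 19 (PFAS 4, median -0.02) to 30 (PFAS 1, median 0.09). PFAS 7 had 27 (median 0.10), and PFAS 1 and 7 share the controls of PFAS 6. In PFAS 6 an unadjusted p under 0.05 (edgeR) was reached by 9 members, all 9 of them higher, among these 3 of the 4 receptors. The share of all genes at that unadjusted limit was not counted, so no background stands beside the 9. PFAS 6 was not tested against PFAS 8 to 13, which share its 6 controls.

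No member was called by edgeR or DESeq2 in PFAS 1, 2, 3, 4, 5, 7, 14 or 15. Over all genes PFAS 1, 2, 14 and 15 each had 0% called, PFAS 3 had 0.041%, PFAS 4 had 0.00456%, PFAS 5 had 0.0547% and PFAS 7 had 0.944%. Among these 8 exposures the number of members with an unadjusted p under 0.05 was highest in PFAS 1 (5 of 40), below the 9 of PFAS 6, followed by PFAS 14 (3), PFAS 5 (2), PFAS 7 (2), PFAS 3 (1) and PFAS 15 (1), with 0 in PFAS 2 and PFAS 4. For these exposures too the share of all genes at the unadjusted limit was not counted. Across PFAS 1 to 7, 14 and 15 the log2 fold change of NOTCH3 lay between -0.07 and 0.23, that of DLL1 (ENSDARG00000010791) between -0.12 and 0.23, and that of LFNG between -0.01 and 0.27. In those 35 libraries NOTCH3 measured 132 to 218 CPM and dlb 28.8 to 55.5 CPM.

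Of the 4 receptors, 3 rose in most of PFAS 8 to 13. NOTCH3, the receptor best known from vascular smooth muscle and also active in the neural tube, measured 208, 244, 234 and 251 CPM in PFAS 8, 219, 238, 248 and 269 CPM in PFAS 9 and 228, 271, 243 and 228 CPM in PFAS 10. Its levels were 287, 306, 314 and 304 CPM in PFAS 11, 225, 255, 240.2 and 231 CPM in PFAS 12 and 244, 236, 200.0 and 206 CPM in PFAS 13, with controls at 154, 172 and 197 CPM (lowest, median and highest of 6). All 24 exposed libraries lay above the highest control, PFAS 11 furthest. The log2 fold changes ran from 0.34 ± 0.08 in PFAS 13 (adjusted p = 0.00053) to 0.79 ± 0.08 in PFAS 11 (adjusted p = 4e-13) by edgeR. With PFAS 5 replicate 1 kept in the fit, the adjusted p was 0.0544 in PFAS 8 and 0.0527 in PFAS 13.

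The receptor NOTCH1, with 2 genes in zebrafish, acts in neural progenitors and in the vasculature. NOTCH1 (ENSDARG00000103554) stood at 144, 146, 149 and 146 CPM in PFAS 8, 149, 167, 138 and 114 CPM in PFAS 9 and 149, 121, 129.9 and 158 CPM in PFAS 10. In PFAS 11 it stood at 147, 164, 152 and 174 CPM, in PFAS 12 at 155, 126, 129 and 112 CPM and in PFAS 13 at 210.3, 147, 145 and 168 CPM, against 77.2, 84.0 and 88.8 CPM as lowest, median and highest control. Again no exposed library overlapped the controls. Its log2 fold change was lowest with 0.65 ± 0.10 in PFAS 12 (adjusted p = 1.3e-06) and highest with 1.01 ± 0.10 in PFAS 13 (adjusted p = 9.6e-13), both by edgeR.

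NOTCH1 (ENSDARG00000052094) measured 28.0, 38.4, 39.8 and 33.7 CPM in PFAS 8, 35.4, 36.2, 38.8 and 37.3 CPM in PFAS 9 and 40.0004, 53.3, 47.9 and 49.2 CPM in PFAS 10. The other libraries gave 49.1, 55.6, 46.9 and 51.2 CPM in PFAS 11, 34.1, 47.9, 50.5 and 47.5 CPM in PFAS 12 and 44.7, 49.3, 41.4 and 43.5 CPM in PFAS 13, and controls 23.1, 28.2 and 32.5 CPM. PFAS 8 replicate 1 lay inside the control range and PFAS 8 was not called, whereas the other 5 exposures lay apart from the controls. Among the calls the log2 fold change was 0.37 ± 0.11 in PFAS 9 (adjusted p = 0.024) at the low end and 0.83 ± 0.11 in PFAS 11 (adjusted p = 1.1e-08) at the high end (edgeR), with 0.29 ± 0.11 in PFAS 8 (adjusted p = 0.14). The PFAS 9 call was lost without control replicate 1 or PFAS 9 replicate 2, 3 or 4 (log2 fold change 0.32 to 0.42, largest adjusted p = 0.078) and with collection day as a block (adjusted p = 0.0508).

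The remaining receptor, notch2, was called in no exposure. Its log2 fold change lay between -0.14 (PFAS 12) and 0.23 (PFAS 10), and of the 24 libraries of PFAS 8 to 13, 6 lay above and 4 below the control range of 37.9 to 47.3 CPM. Between exposures NOTCH3 was higher in PFAS 11 than in each of the other 5 (for PFAS 8 minus PFAS 11, -0.37 ± 0.08 (adjusted p = 0.0024), edgeR).

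The ligands gave between 5 and 8 rises of 9 in an exposure, where 2.1% (PFAS 8) to 7.63% (PFAS 13) of all genes were higher. DLL1 (ENSDARG00000010791), a Delta ligand of the kind that newborn neurons present to neighbouring progenitors, measured 251, 252, 259.6 and 261 CPM in PFAS 8, 248, 265, 258 and 252 CPM in PFAS 9 and 279.8, 261, 258 and 291 CPM in PFAS 10. It measured 329.8, 355, 322 and 381 CPM in PFAS 11, 248, 254, 226 and 261 CPM in PFAS 12 and 338, 295, 279 and 318 CPM in PFAS 13, with 145, 161 and 186 CPM as lowest, median and highest control. All 24 exposed libraries lay above the controls, and PFAS 11 was highest. By edgeR the log2 fold change was 0.60 ± 0.07 in PFAS 12 (adjusted p = 1.8e-09) at the least and 1.09 ± 0.07 in PFAS 11 (adjusted p = 9.1e-20) at the most.

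DLL1 (ENSDARG00000020219) was found at 43.1, 39.7, 42.6 and 40.1 CPM in PFAS 8, 44.8, 52.3, 53.2 and 38.7 CPM in PFAS 9 and 50.3, 39.7, 40.4 and 42.6 CPM in PFAS 10. Levels in the remaining exposures were 54.6, 59.5, 55.7 and 67.2 CPM (PFAS 11), 33.99, 35.7, 31.6 and 34.2 CPM (PFAS 12) and 54.1, 43.7, 39.4 and 48.3 CPM (PFAS 13), against 24.6, 26.5 and 33.6 CPM in controls. Control replicate 6 stood apart from the other controls on the high side and overlapped 1 PFAS 12 library. The log2 fold change ran from 0.31 ± 0.11 in PFAS 12 (adjusted p = 0.046) to 1.12 ± 0.11 in PFAS 11 (adjusted p = 5.7e-13) in the edgeR fit. The PFAS 12 call was lost without control replicate 2, 3, 4 or 5 or PFAS 12 replicate 1, 2 or 4 (log2 fold change 0.29 to 0.38, largest adjusted p = 0.12).

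The Delta gene dlb, expressed in zebrafish in cells about to become neurons, stood at 58.98, 56.2, 52.2 and 61.1 CPM in PFAS 8, 64.2, 61.8, 65.4 and 70.0009 CPM in PFAS 9 and 59.8, 59.3, 49.9 and 57.1 CPM in PFAS 10. PFAS 11 libraries had 81.02, 71.1, 73.5 and 65.8 CPM, PFAS 12 libraries 68.8, 72.5, 76.5 and 53.0 CPM and PFAS 13 libraries 80.9, 73.3, 76.6 and 94.5 CPM, and controls 33.9, 40.9 and 47.8 CPM. The exposed and control libraries did not overlap in any of the 6 exposures. Its log2 fold change was 0.47 ± 0.12 in PFAS 10 (adjusted p = 0.0023) at the low end and 1.00 ± 0.12 in PFAS 13 (adjusted p = 1.8e-10) at the high end (edgeR). The PFAS 8 call was lost with PFAS 5 replicate 1 kept in the fit (adjusted p = 0.074).

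The Jagged ligand jag1a rose in all 6, by log2 fold changes of 0.45 (PFAS 8) to 0.87 (PFAS 11), at 8.30 to 15.18 CPM in exposed libraries against 6.38 to 8.79 CPM in controls. Its edgeR adjusted p was 0.049 in PFAS 8 and 0.024 in PFAS 9, and with collection day as a block the adjusted p was 0.0787 in PFAS 8 and 0.0531 in PFAS 9. The PFAS 8 call was also lost under RLE scaling (adjusted p = 0.0523), and the PFAS 9 call without control replicate 2 or PFAS 9 replicate 2 or 3 (log2 fold change 0.38 to 0.57, largest adjusted p = 0.13). The endothelial ligand dll4, which marks the tip cells of sprouting vessels, rose in PFAS 8 (0.72), PFAS 10 (0.66), PFAS 12 (0.49) and PFAS 13 (0.78) and was not called in PFAS 9 (0.39) or PFAS 11 (0.38). The Jagged gene jag2b rose in PFAS 8 (0.50), PFAS 9 (0.40), PFAS 10 (0.50) and PFAS 13 (0.61). It was not called in PFAS 11 (0.25) or PFAS 12 (-0.23), and its difference as PFAS 12 minus PFAS 13 was -0.84 ± 0.14 (adjusted p = 3.2e-06) by edgeR.

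The Delta gene dlc, also a part of the segmentation clock, was called in PFAS 10 (0.57), PFAS 11 (0.69) and PFAS 13 (0.76). For jag1b, which patterns the pharyngeal arches, only PFAS 13 was called (0.33), and that call was lost without control replicate 1 or 6 or PFAS 13 replicate 2, 3 or 4 (log2 fold change 0.28 to 0.41, largest adjusted p = 0.11). The remaining ligand jag2a, at 0.131 to 1.73 CPM in exposed libraries, was not called in any (log2 fold change -0.04 to 0.65).

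Fringe genes were split. LFNG, which in the neural tube and somites favours signalling by Delta ligands, measured 109.9, 109, 115 and 119.8 CPM in PFAS 8, 110.4, 135, 102 and 113 CPM in PFAS 9 and 104, 113, 105 and 106 CPM in PFAS 10. For PFAS 11 the values were 131, 156, 132 and 156 CPM, for PFAS 12 159, 147, 144 and 144 CPM and for PFAS 13 129, 127, 106 and 124 CPM, against 66.5, 78.6 and 84.9 CPM in controls. No exposed library reached down to the controls, and PFAS 11 and 12 were the highest. By edgeR LFNG changed by 0.46 ± 0.08 in PFAS 10 (adjusted p = 3.8e-06) at the least and 0.93 ± 0.08 in PFAS 12 (adjusted p = 4e-16) at the most on the log2 scale. PFAS 10 minus PFAS 12 was -0.47 ± 0.08 (adjusted p = 1.1e-05), so the exposures as dosed also differed from each other. The other fringe genes, RFNG and mfng, were below 4 CPM in every library of PFAS 8 to 13 and called in none.

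**Figure D2:**
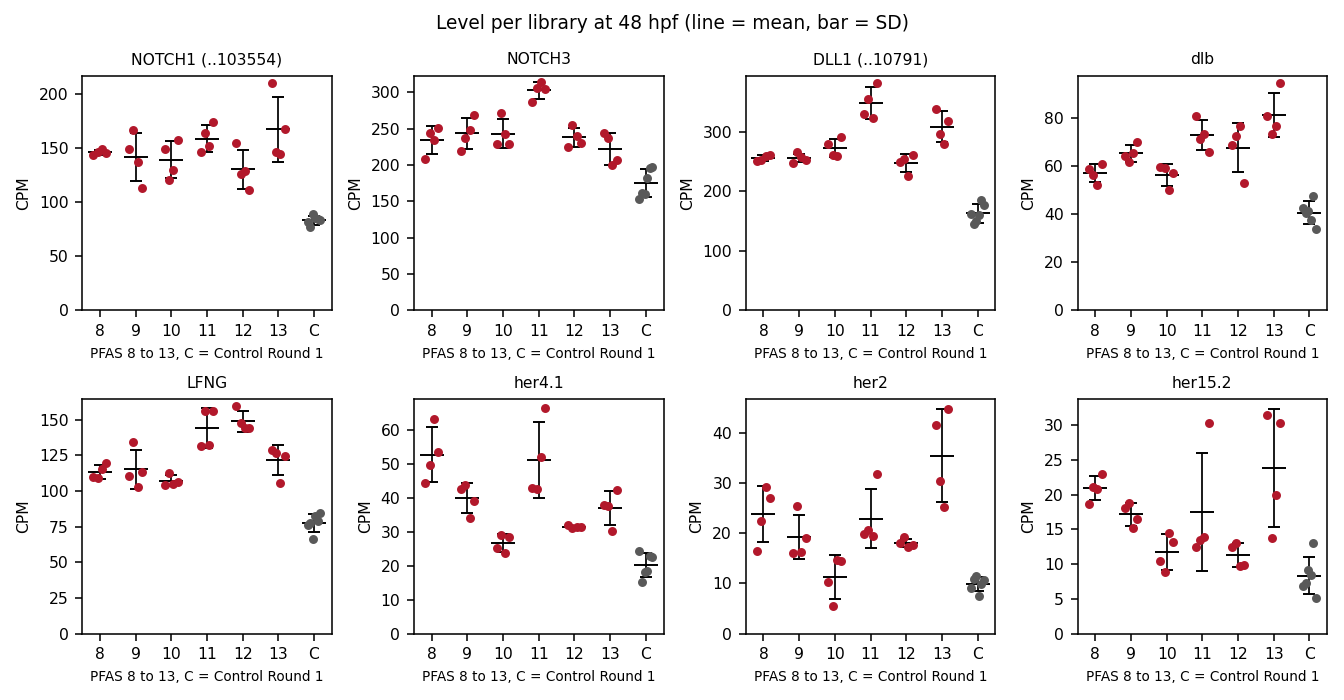
Level in CPM of 8 members in every library of PFAS 8 to 13 and of the 6 Round 1 controls (C), 1 point a library, with the mean as a line and the SD as a bar, axes from 0. For NOTCH1 (ENSDARG00000103554), NOTCH3, DLL1 (ENSDARG00000010791), dlb and LFNG all 24 exposed points lie above the controls, whereas PFAS 10 comes close to the controls for her4.1, her2 and her15.2.

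The her/hes/hey repressors differed most between exposures in how many rose. Of 24 tested, PFAS 9 and PFAS 11 had 13 higher each, PFAS 13 had 12, PFAS 8 had 11, PFAS 12 had 7 (with 1 lower) and PFAS 10 had 4. Of all genes 2.1% (PFAS 8) to 7.63% (PFAS 13) were higher, with 7.26% in PFAS 10. A positive log2 fold change was found for 19 (PFAS 10) to 23 (PFAS 11) of the 24 repressors. The zebrafish genes her2, her4.1 to her4.5, her12, her15.1 and her15.2 are counterparts of mammalian Hes5, which neural progenitors switch on in answer to Notch. Several of them are neighbours (her4.1 to her4.5 with her12, and her2 with her15.1 and her15.2, by the order of genes in RefSeq GRCz12tu). How alike their sequences are was not examined. A read may match several like copies, so the level of a single copy is uncertain.

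her4.1 was the most often called repressor. It measured 44.3, 49.6, 63.3 and 53.6 CPM in PFAS 8, 42.7, 43.7, 34.1 and 39.1 CPM in PFAS 9 and 25.3, 29.1, 23.7 and 28.6 CPM in PFAS 10. PFAS 11 gave 42.7, 42.7, 52.1 and 66.4 CPM, PFAS 12 31.99, 31.1, 31.5 and 31.3 CPM and PFAS 13 37.8, 37.7, 30.3 and 42.2 CPM, against 15.4, 20.5 and 24.3 CPM in controls. One PFAS 10 library lay within the control range, and all other exposed libraries lay above it, PFAS 8 and 11 highest. Log2 fold changes were 1.37 ± 0.13 in PFAS 8 (adjusted p = 7.2e-13), 0.98 ± 0.13 in PFAS 9 (adjusted p = 3.2e-08) and 1.32 ± 0.13 in PFAS 11 (adjusted p = 3.5e-13) by edgeR, and only 0.39 ± 0.13 in PFAS 10 (adjusted p = 0.03). That PFAS 10 call was lost without control replicate 2, 3 or 4 or PFAS 10 replicate 2 or 4 (log2 fold change 0.32 to 0.45, largest adjusted p = 0.097).

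Levels of her2 were 16.5, 22.5, 29.1 and 27.1 CPM in PFAS 8, 16.1, 25.4, 16.2 and 19.1 CPM in PFAS 9 and 10.4, 5.497, 14.7 and 14.5 CPM in PFAS 10. They were 19.8, 20.6, 19.5 and 31.7 CPM in PFAS 11, 18.02, 19.2, 17.22 and 17.6 CPM in PFAS 12 and 41.6, 30.3, 25.2 and 44.6 CPM in PFAS 13, against 7.43, 10.3 and 11.5 CPM in controls. PFAS 13 was the highest and PFAS 10 overlapped the controls on both sides. A log2 fold change of 1.84 ± 0.19 in PFAS 13 (adjusted p = 9.5e-13) was the steepest of any called member, and 0.18 ± 0.19 in PFAS 10 (adjusted p = 0.64) was not called (edgeR).

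For her4.2 the libraries gave 8.95, 16.3, 13.5 and 12.7 CPM in PFAS 8, 10.5, 12.0, 9.01 and 10.5 CPM in PFAS 9 and 3.76, 8.07, 5.66 and 6.89 CPM in PFAS 10. The PFAS 11 libraries had 10.9, 9.34, 10.3 and 11.3 CPM, those of PFAS 12 9.14, 7.86, 6.27 and 9.52 CPM and those of PFAS 13 9.44, 8.75, 11.8 and 12.3 CPM, with controls at 4.29, 5.36 and 5.89 CPM. PFAS 10 straddled the controls, and the other 5 exposures lay above them. Log2 fold changes by edgeR were between 0.65 ± 0.18 in PFAS 12 (adjusted p = 0.0086) and 1.30 ± 0.18 in PFAS 8 (adjusted p = 5.2e-07) among the calls, with 0.22 ± 0.19 in PFAS 10 (adjusted p = 0.51). The PFAS 12 call was lost with PFAS 5 replicate 1 kept in the fit (adjusted p = 0.0811).

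her4.5 stood at 7.16, 10.2, 6.98 and 9.29 CPM in PFAS 8, 7.63, 8.73, 6.20 and 7.46 CPM in PFAS 9 and 2.19, 4.29, 6.37 and 4.94 CPM in PFAS 10. It stood at 6.90, 8.99, 9.604 and 8.87 CPM in PFAS 11, 7.90, 9.92, 5.58 and 5.67 CPM in PFAS 12 and 7.81, 6.96, 4.26 and 10.7 CPM in PFAS 13, against 3.29, 4.50 and 6.18 CPM in controls. Of PFAS 12, 2 libraries fell within the control range, and of PFAS 13, 1, while PFAS 10 reached below it. By edgeR the log2 fold change was 0.68 ± 0.22 in PFAS 12 (adjusted p = 0.025) to 0.91 ± 0.22 in PFAS 11 (adjusted p = 0.0013) among the 5 calls, against -0.03 ± 0.23 in PFAS 10 (adjusted p = 0.96). These calls were less secure: the PFAS 8 one was lost without PFAS 8 replicate 2, the PFAS 13 one without control replicate 3 or PFAS 13 replicate 4, and the PFAS 12 one without control replicate 2 or 3 or PFAS 12 replicate 1 or 2. The PFAS 9 call was lost without control replicate 1, 2 or 3 or PFAS 9 replicate 1, 2 or 4. Over the leave-outs the log2 fold change was 0.78 to 1.00, largest adjusted p = 0.062 in PFAS 8 and 0.64 to 0.83, largest adjusted p = 0.14 in PFAS 9. It was 0.50 to 0.80, largest adjusted p = 0.19 in PFAS 12 and 0.48 to 0.90, largest adjusted p = 0.2 in PFAS 13, where the block by collection day gave an adjusted p of 0.0589.

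The levels of her12 were 20.95, 28.9, 33.6 and 34.5 CPM in PFAS 8, 26.2, 26.9, 27.7 and 32.5 CPM in PFAS 9 and 12.1, 16.4, 19.2 and 21.8 CPM in PFAS 10. Libraries of PFAS 11 had 21.2, 27.8, 25.8 and 38.8 CPM, of PFAS 12 18.5, 22.1, 26.6 and 26.5 CPM and of PFAS 13 23.5, 22.8, 20.7 and 22.1 CPM, against 13.7, 15.3 and 18.4 CPM in controls. Only PFAS 10 overlapped the controls. The log2 fold change was 0.51 ± 0.16 in PFAS 13 (adjusted p = 0.014) at the low end of the 5 calls and 0.91 ± 0.15 in PFAS 8 (adjusted p = 4.6e-05) at the high end, with 0.15 ± 0.16 in PFAS 10 (adjusted p = 0.63) (edgeR).

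her15.2 gave 18.7, 21.1, 20.9 and 22.96 CPM in PFAS 8, 18.1, 18.8, 15.21 and 16.5 CPM in PFAS 9 and 10.5, 8.83, 14.5 and 13.2 CPM in PFAS 10. In PFAS 11 the values were 12.5, 13.5, 13.9 and 30.2 CPM, in PFAS 12 12.4, 13.1, 9.73 and 9.94 CPM and in PFAS 13 31.4, 13.8, 19.9 and 30.3 CPM, against 5.18, 7.87 and 13.0 CPM in controls. PFAS 10, 11 and 12 overlapped the highest control, and PFAS 11 replicate 4 lay far above the other 3. Log2 fold changes were 1.32 ± 0.20 in PFAS 8 (adjusted p = 3.5e-06), 1.06 ± 0.20 in PFAS 11 (adjusted p = 3.7e-05) and 1.51 ± 0.20 in PFAS 13 (adjusted p = 7.5e-09) by edgeR. Its neighbour her15.1 rose in the same exposures (PFAS 8 1.15, PFAS 9 1.197, PFAS 11 0.90 and PFAS 13 1.30), although the PFAS 8 call was lost without PFAS 8 replicate 3 (log2 fold change 0.79 to 1.34, largest adjusted p = 0.086).

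The lowest copies, her4.3 and her4.4, were at most 3.86 CPM. her4.4 rose in PFAS 8 (1.49 ± 0.35), PFAS 9 (1.29 ± 0.35), PFAS 10 (1.07 ± 0.35) and PFAS 11 (1.46 ± 0.35), and her4.3 in PFAS 10 (1.48 ± 0.48) and PFAS 13 (1.44 ± 0.48). Besides her4.1 these were the Hes5-related genes called in PFAS 10. The PFAS 10 call of her4.3 was lost without control replicate 3 or 5 or PFAS 10 replicate 3 (log2 fold change 1.12 to 1.90, largest adjusted p = 0.17), and that of her4.4 in 6 of 10 leave-outs and with collection day as a block (adjusted p = 0.061).

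Counterparts of Hes1 and Hes6 changed less. HES1, the classic Notch effector of vertebrate progenitors, measured 30.2, 29.4, 42.5 and 41.5 CPM in PFAS 8, 35.4, 33.1, 28.6 and 29.02 CPM in PFAS 9 and 23.3, 28.1, 28.2 and 29.8 CPM in PFAS 10. PFAS 11 libraries measured 26.9, 27.05, 29.8 and 35.9 CPM, PFAS 12 libraries 27.3, 22.8, 25.4 and 24.1 CPM and PFAS 13 libraries 41.1, 33.9, 34.1 and 36.5 CPM, against 20.2, 23.2 and 26.3 CPM in controls. Both PFAS 10 and PFAS 12 overlapped the controls. The log2 fold change was 0.37 ± 0.11 in PFAS 11 (adjusted p = 0.012) at the low end of the 4 calls and 0.65 ± 0.11 in PFAS 13 (adjusted p = 2.1e-06) at the high end (edgeR). Without PFAS 11 replicate 4 the PFAS 11 call was lost (log2 fold change over leave-outs 0.27 to 0.42, largest adjusted p = 0.12).

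HES6 (ENSDARG00000019335), a counterpart of mouse Hes6, which opposes Hes1 and favours neuronal differentiation, measured 74.9, 81.4, 80.5 and 84.0 CPM in PFAS 8, 92.8, 86.8, 95.9 and 101 CPM in PFAS 9 and 78.2, 80.3, 78.7 and 92.4 CPM in PFAS 10. It measured 90.6, 83.3, 77.2 and 82.8 CPM in PFAS 11, 66.5, 75.5, 76.4 and 83.3 CPM in PFAS 12 and 84.3, 93.2, 76.4 and 84.4 CPM in PFAS 13, with controls at 56.7, 66.1 and 81.4 CPM. Only PFAS 9 was clear of the controls. The log2 fold change was 0.25 ± 0.08 in PFAS 8 (adjusted p = 0.044) at the low end of the 5 calls and 0.48 ± 0.08 in PFAS 9 (adjusted p = 2.9e-06) at the high end by edgeR. The PFAS 8 call was lost without control replicate 1, 2, 3 or 4 or PFAS 8 replicate 2, 3 or 4 (log2 fold change 0.20 to 0.32, largest adjusted p = 0.15), and with collection day as a block its adjusted p was 0.074 (0.0523 under RLE scaling).

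HES4, near Hes1 in sequence, rose in PFAS 8 (0.67), PFAS 9 (0.45), PFAS 11 (0.55) and PFAS 13 (0.49), and in PFAS 12 its log2 fold change was -0.07 with no call. HES2 (ENSDARG00000068168) was the only member with a called fall: -0.68 ± 0.17 in PFAS 12 (adjusted p = 0.0025) by edgeR, at 6.46 to 7.70 CPM in PFAS 12 against 6.89 to 14.8 CPM in controls, ranges that overlapped (adjusted p = 0.0554 with the replicate number as a block). The same gene rose in PFAS 9 (0.56), PFAS 11 (0.49) and PFAS 13 (0.80). PFAS 12 minus PFAS 13 was -1.48 ± 0.18 (adjusted p = 1.6e-09) by edgeR. The neural genes her8a and her8.2 were called less often: her8a in PFAS 9 (0.81) and PFAS 12 (0.91), and her8.2 in PFAS 11 (0.98) and PFAS 12 (0.83).

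Repressors of other settings were not called in any exposure. HEY1 and HEY2, which act in the heart and in arteries, had log2 fold changes between -0.23 and 0.13 and between -0.24 and 0.38 in PFAS 8 to 13. The segmentation clock gene her7 and the midbrain-hindbrain boundary genes her5 and her11 were each below 1.3 CPM in all libraries of PFAS 8 to 13, and no fold is read from them. HES3, heyl, HES2 (ENSDARG00000074897) and HES6 (ENSDARG00000007097) were not called either.

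Several calls were lost when a single library was left out, and not only those of the less abundant members. The call was lost without PFAS 11 replicate 4 for HES4 in PFAS 11 (log2 fold change 0.38 to 0.63, largest adjusted p = 0.11), without PFAS 13 replicate 1 for HES4 in PFAS 13 (0.45 to 0.56, largest adjusted p = 0.054), and without PFAS 9 replicate 2 for her8a (0.65 to 0.94, largest adjusted p = 0.11) and her4.4 (1.01 to 1.44, largest adjusted p = 0.14) in PFAS 9. It was lost without PFAS 12 replicate 2 for her8.2 (0.60 to 0.95, largest adjusted p = 0.16), without PFAS 12 replicate 1 or 2 for dll4 in PFAS 12 (0.33 to 0.67, largest adjusted p = 0.23) and without PFAS 10 replicate 2 for jag1a in PFAS 10 (0.42 to 0.61, largest adjusted p = 0.052). Over PFAS 8 to 13 jag1a reached at most 15.18 CPM, her8a 11.8 CPM and her8.2 7.37 CPM. HES2 (ENSDARG00000068168) lost its PFAS 9 call without control replicate 3 or PFAS 9 replicate 1 (0.46 to 0.66, largest adjusted p = 0.071) and its PFAS 11 call without control replicate 2 or 3 or PFAS 11 replicate 2 or 4 (0.39 to 0.59, largest adjusted p = 0.1). For 12 PFAS calls 5 to 7 of the 10 leave-outs ended the call. Of these, her4.1 in PFAS 6 and 10, DLL1 (ENSDARG00000020219) in PFAS 12, HES6 (ENSDARG00000019335) in PFAS 8, her4.5 in PFAS 9 and jag1b in PFAS 13 are described with their genes. The other 6 were dlc in PFAS 10 (0.50 to 0.67, largest adjusted p = 0.097), HES4 in PFAS 9 (0.29 to 0.56, largest adjusted p = 0.41, and adjusted p = 0.0569 with the block by collection day), jag2b in PFAS 9 (0.37 to 0.47, largest adjusted p = 0.079), jag1a in PFAS 8 (0.35 to 0.52, largest adjusted p = 0.26), her4.4 in PFAS 10 (0.94 to 1.27, largest adjusted p = 0.11) and her4.3 in PFAS 13 (1.09 to 1.86, largest adjusted p = 0.18). All of these were edgeR fits, and no leave-out turned the sign of a called difference.

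PFAS 10 and PFAS 11, the sulfonamides perfluorooctane sulfonamide and perfluorohexane sulfonamide, were dosed at 8 µM and 28 µM, so a difference is one between the exposures as dosed. Of the 40 members 9 differed, all lower in PFAS 10, where 7.89% of all genes were called in this pair (4.32% higher, 3.58% lower). As PFAS 10 minus PFAS 11 on the log2 scale, the difference was -1.02 ± 0.21 (adjusted p = 0.00036) for her2, -0.94 ± 0.25 (adjusted p = 0.0067) for her4.5, -0.93 ± 0.14 (adjusted p = 1.8e-06) for her4.1 and -0.77 ± 0.20 (adjusted p = 0.0065) for her4.2 (edgeR). It was -0.70 ± 0.17 (adjusted p = 0.0035) for her12, -0.43 ± 0.08 (adjusted p = 0.00022) for LFNG and -0.32 ± 0.08 (adjusted p = 0.0081) for NOTCH3. For the Delta ligands it was -0.45 ± 0.12 (adjusted p = 0.0081) for DLL1 (ENSDARG00000020219) and -0.35 ± 0.08 (adjusted p = 0.0021) for DLL1 (ENSDARG00000010791). No other member passed the test in this pair.

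Across all 15 pairs of PFAS 8 to 13, 95 member differences were called, in tests where 8.83% of all gene differences were called, and doses differed in every pair. Pairs ranged from 0 calls (PFAS 8 minus PFAS 9, with 1.33% of all genes called) to 12 (PFAS 12 minus PFAS 13, with 13.4%). her4.1 differed in 8 pairs, and her2, LFNG and DLL1 (ENSDARG00000010791) in 7 each. PFAS 8 minus PFAS 10 was 0.98 ± 0.14 (adjusted p = 4.4e-07) for her4.1, 1.08 ± 0.21 (adjusted p = 0.00015) for her2, 1.07 ± 0.20 (adjusted p = 8.8e-05) for her4.2 and 0.76 ± 0.17 (adjusted p = 0.0016) for her12 (edgeR). In PFAS 10, 3 of 4 receptors, 7 of 9 ligands and 4 of 24 repressors rose, where 7.26% of all genes were higher. By these direct tests her2, her4.1, her4.2, her4.5 and her12 were each lower in PFAS 10 than in PFAS 8, 9 and 11. Against PFAS 12 this held for her2 (-0.68 ± 0.21 (adjusted p = 0.013)) and her4.5 (-0.71 ± 0.25 (adjusted p = 0.031)) but her4.1, her4.2 and her12 did not pass. The pairs with PFAS 8, 9 and 11 were the only called ones of her12, so it was not called against PFAS 13. The related copies her4.3, her4.4 and her15.1 were called in no pair, and her4.3 had its highest log2 fold change in PFAS 10 (1.48). A pair was also called for HES2 (ENSDARG00000074897), at 2.26 ± 0.76 (adjusted p = 0.048) for PFAS 9 minus PFAS 12, and for her5, both below 2 CPM in every library of these exposures.

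Partners of the pathway were counted by list. Of 12 genes for processing and modifying the receptor (such as ADAM and presenilin genes), 1 was higher in each of PFAS 10 to 13, with 1 lower in PFAS 12. Of 5 genes for ligand endocytosis, 1 was higher in each of PFAS 10 to 13. In these exposures 6.58% (PFAS 11) to 7.63% (PFAS 13) of all genes were higher, and in PFAS 12 7.47% were lower. Single calls in lists this small were not tested against those shares, and no result about the lists is read from them. Of 18 genes of the nuclear complex and its corepressors, 4 were called in PFAS 8 (3.84% of all genes), 6 in PFAS 10 (14.1%) and 5 in PFAS 13 (16.2%). In each of PFAS 9 (6.9%), PFAS 11 (14.1%) and PFAS 12 (14.2%) 4 were called. Each exposure had 1 to 4 higher and 1 to 3 lower. Of 12 regulators of turnover, 0 to 2 were higher and 0 or 1 lower, where 2.1% to 7.63% of all genes were higher and 1.74% to 8.52% lower. A count of 0 to 2 in so small a list was not tested against these shares. In these lists the median log2 fold change lay between -0.29 and 0.25 over PFAS 8 to 13.

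The corepressor genes ctbp2a and TLE3 and the feedback inhibitor NRARP were called most often in these lists. The log2 fold change of ctbp2a, a fall in all 6 exposures, was -0.49 ± 0.09 in PFAS 13 and -0.27 ± 0.09 in PFAS 10. TLE3 (ENSDARG00000002787) rose in 5, with 0.58 in PFAS 12 and no call in PFAS 11 (0.25). TLE3 (ENSDARG00000069006) rose in 4, with 0.49 in PFAS 12 and no call in PFAS 9 (0.29) or PFAS 11 (0.14). NRARP, itself a Notch target that limits the signal, has 2 genes: NRARP (ENSDARG00000091419) rose in PFAS 9 (0.59), PFAS 10 (0.49), PFAS 11 (0.72), PFAS 12 (0.78) and PFAS 13 (0.42). NRARP (ENSDARG00000018958) rose in PFAS 9 (0.62), PFAS 10 (0.63), PFAS 11 (0.84) and PFAS 12 (0.87), but not in PFAS 13 (-0.02).

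Proneural genes drive progenitors towards neurons and raise Delta ligands in the cells that express them. A list of proneural and deep progenitor genes, which also holds insm1a, insm1b, foxn4 and olig2, mostly rose in the same exposures. Of 12 tested, PFAS 11 had 10 higher, PFAS 10 had 9 and the other 4 exposures 8 each, with 0 or 1 lower. Over PFAS 8 to 13, 2.1% to 7.63% of all genes were higher and 1.74% to 8.52% lower. The proneural factors ascl1a (0.50 ± 0.12 in PFAS 8 to 1.10 ± 0.12 in PFAS 11) and neurog1 (0.60 ± 0.16 in PFAS 9 to 1.10 ± 0.15 in PFAS 11) rose in all 6. NEUROD1, a later factor of neuronal differentiation, named after its values were seen, fell in 5 exposures (-1.49 ± 0.09 in PFAS 13). Summed over the list, the level was 412 to 461 CPM in PFAS 8, 506 to 584 CPM in PFAS 11 and 508 to 588 CPM in PFAS 12, against 332 to 380.4 CPM in controls. No library of PFAS 8 to 13 overlapped the controls in this sum.

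Neuron markers fell: of 15 genes, PFAS 11 had 13 lower, PFAS 13 had 10, PFAS 10 had 8, PFAS 9 had 6 and PFAS 8 and 12 had 5 each, with 0 to 2 higher. The share of all genes that were lower was 1.74% to 8.52% over PFAS 8 to 13. ELAVL4, an RNA-binding protein of young neurons, changed by -0.34 ± 0.07 in PFAS 8 and -0.90 ± 0.07 in PFAS 11, and gap43, a protein of growing axons, by -0.29 ± 0.07 in PFAS 8 and -0.79 ± 0.07 in PFAS 12. The summed level of the list was 3092 to 3174 CPM in PFAS 8, 2670.4 to 2899 CPM in PFAS 10 and 2348 to 2619.7 CPM in PFAS 11, against 3252 to 3681 CPM in controls. All of PFAS 8 to 13 stayed below the lowest control in that sum. The part of these shifts in the member differences was not tested.

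Markers of radial glia and other neural progenitors were mixed, with 4 or 5 of 12 higher and 0 to 3 lower in each exposure. For this list and the next 3, the shares over all genes were 2.1% to 7.63% higher and 1.74% to 8.52% lower. SOX3, a progenitor factor, rose in all 6 (0.35 ± 0.07 in PFAS 13 to 0.80 ± 0.07 in PFAS 12), but other markers fell. In PFAS 13, where 1 of the 12 was at 0 CPM, the log2 fold change ran from -3.41 to 1.07 over the list. For the 12 markers it was -1.11 to 0.74 in PFAS 11 and -1.04 to 1.15 in PFAS 12. Their sum was 1489 to 1588 CPM in PFAS 12, above the controls, and 867 to 1073 CPM in PFAS 13, below them, with controls at 1145 to 1372 CPM. Of 12 endothelial genes 0 to 3 were higher and 0 or 1 lower, and of 7 hair cell genes 0 to 5 were lower. Of 7 presomitic and segmentation genes 0 were called by edgeR in PFAS 8 to 13. An unadjusted p under 0.05 was reached by 0 or 1 in an exposure, and the share of all genes at that limit was not counted. Endothelial genes summed to 259 to 279.9 CPM in PFAS 13 and 203 to 226 CPM in PFAS 9, against 219 to 237 CPM in controls.

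**Figure D3:**
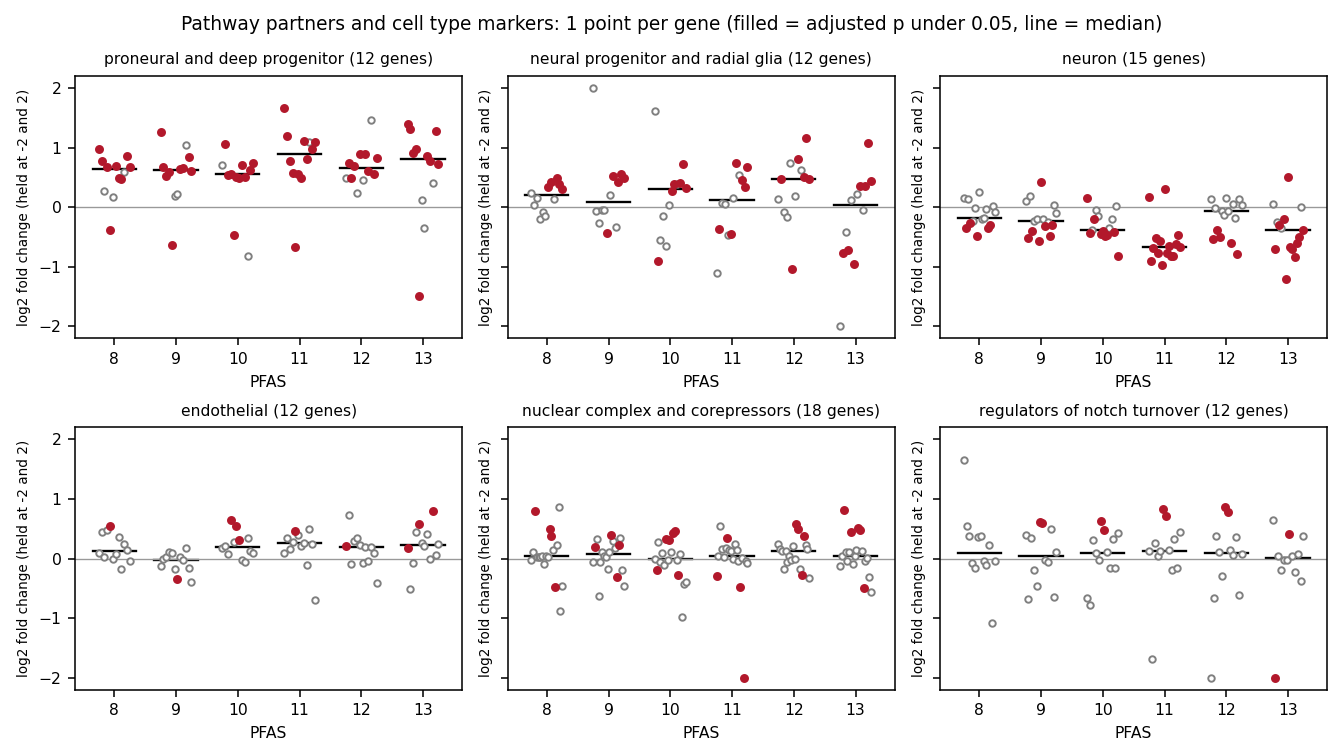
Log2 fold change of partner genes and cell type markers in PFAS 8 to 13, 1 point a gene, filled where called by edgeR, with the median as a line and values held at -2 and 2. Genes of the proneural and deep progenitor list lie mostly above 0. Neuron genes lie mostly below, with 13 of 15 lower in PFAS 11, while the nuclear complex and turnover regulators scatter around 0.

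In the NB2 time course all calls of members against Control-C were at 96 hpf, and most were lower. No member was called by limma in NB2 embryos at 48 hpf, where 0% of the 24853 genes tested were called and 4 of 39 members had an unadjusted p under 0.05. None was called at 72 hpf (5 with an unadjusted p under 0.05), where 0.728% of genes were called (0.479% higher, 0.249% lower). At neither age was the share of all genes at the unadjusted limit counted. At 96 hpf 14 of 39 members were called, 12 lower and 2 higher, where 18.4% of genes were called (8.22% higher, 10.2% lower). The paper, using DESeq2 at the same adjusted limit, reports far fewer changed genes at 96 hpf than the 4568 called here by limma. The reason for that gap was not tested. The values are the variance-stabilized log2 values, and her9 was not tested because it exceeded the lowest value of the table in fewer than 4 columns.

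The receptors were all lower in NB2 embryos at 96 hpf. notch1a had 7.70, 7.78, 7.46, 7.53 and 7.58 in the 5 NB2 columns, against 8.01, 8.23, 8.21, 7.89 and 8.07 in the 5 Control-C columns. The columns of the 2 groups did not overlap. The difference was -0.47 ± 0.10 (limma adjusted p = 0.00032). notch1b had 8.96, 8.88, 8.92, 8.92 and 8.70 with NB2, against 9.21, 9.29, 9.27, 9.20 and 9.09 without, again with no overlap and a difference of -0.33 ± 0.07 (limma adjusted p = 0.0003).

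notch2 stood at 8.85, 8.94, 9.00, 9.04 and 8.89 in NB2 columns, against 9.16, 9.05, 9.36, 9.30 and 9.33 in Control-C columns, and differed by -0.29 ± 0.07 (limma adjusted p = 0.0016). The highest NB2 column lay just under the lowest control column. notch3 stood at 8.14, 8.31, 8.68, 8.58 and 8.63 in NB2 columns, against 8.92, 9.06, 9.09, 9.09 and 8.92 in Control-C columns, a difference of -0.54 ± 0.09 (limma adjusted p = 9e-06). All NB2 columns of notch3 were lower.

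Ligands moved both ways. The Delta gene dla, of early neurons, had 8.31, 8.70, 8.82, 8.57 and 8.82 in NB2 columns, against 8.96, 9.03, 9.16, 9.24 and 8.94 in Control-C columns, a difference of -0.42 ± 0.08 (limma adjusted p = 0.00021). dlb had 6.68, 6.19, 6.70, 6.68 and 6.38 in NB2 columns, against 7.28, 6.74, 7.02, 7.23 and 7.28 in Control-C columns, and a difference of -0.59 ± 0.12 (limma adjusted p = 0.00025). Both were lower in every NB2 column than in any control column. jag1b had 8.31, 8.56, 8.58, 8.41 and 8.40 in NB2 columns, against 8.91, 9.06, 8.92, 8.90 and 8.99 in Control-C columns, a difference of -0.50 ± 0.08 (limma adjusted p = 8.6e-06) with no overlap either.

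By contrast dld, a Delta gene of the neural tube, had 10.51, 10.20, 10.27, 10.24 and 10.23 in NB2 columns, against 9.86, 9.94, 9.87, 9.95 and 10.11 in Control-C columns. It was higher by 0.34 ± 0.08 (limma adjusted p = 0.0026), with NB2 column A above the others. The endothelial dll4 had 7.28, 6.92, 7.37, 7.07 and 7.28 in NB2 columns, against 6.86, 7.19, 6.83, 6.90 and 6.47 in Control-C columns, groups that overlapped. Its difference of 0.33 ± 0.12 (limma adjusted p = 0.044) was lost without Control-C column A, C, D or E or NB2 column A, C or E (log2 difference 0.24 to 0.42, largest adjusted p = 0.17), and in a fit of only these 2 groups (adjusted p = 0.125).

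lfng had 8.22, 8.58, 8.42, 8.21 and 8.36 in NB2 columns, against 8.73, 8.42, 8.53, 8.73 and 8.65 in Control-C columns, and the groups overlapped. The difference of -0.26 ± 0.08 (limma adjusted p = 0.021) was lost without Control-C column A or D or NB2 column A or D (log2 difference -0.31 to -0.22, largest adjusted p = 0.071), and in a fit of only these 2 groups (adjusted p = 0.0724). The other fringe genes, mfng (0.11 ± 0.17) and rfng (-0.21 ± 0.15), were not called.

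Of the repressors, her2, her4.1, hes6 and hey1 were lower. her2 had 6.38, 6.44, 6.28, 5.90 and 6.30 in NB2 columns, against 7.01, 6.97, 6.90, 6.88 and 7.15 in Control-C columns, the largest fall of the called members at -0.72 ± 0.11 (limma adjusted p = 3.9e-06). hes6 had 7.82, 7.77, 7.84, 8.00 and 7.44 in NB2 columns, against 8.40, 8.16, 8.29, 8.07 and 8.35 in Control-C columns, and differed by -0.48 ± 0.09 (limma adjusted p = 0.00022). In neither gene did the groups overlap. hey1, of arteries and heart, had 6.77, 7.14, 6.81, 6.77 and 6.93 in NB2 columns, against 7.28, 7.405, 7.59, 7.35 and 7.33 in Control-C columns, a difference of -0.51 ± 0.11 (limma adjusted p = 0.00079).

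her4.1 had 6.45, 6.48, 6.66, 6.10 and 5.91 in NB2 columns, against 6.62, 6.80, 7.23, 6.78 and 6.71 in Control-C columns, and 1 NB2 column overlapped the controls. Its difference of -0.51 ± 0.15 (limma adjusted p = 0.015) was lost without Control-C column C or NB2 column E (log2 difference -0.59 to -0.41, largest adjusted p = 0.074), and in a fit of only these 2 groups (adjusted p = 0.0533). Among the copies that were not called, her4.2 had -0.47 ± 0.18, her4.4 -0.35 ± 0.21, her4.5 -0.40 ± 0.19, her15.1 -0.44 ± 0.22 and her15.2 -0.28 ± 0.17 at 96 hpf. The genes dlc, her1, her5, her6 and her7 were at or near the lowest value of the table (3.59) in many columns, and no difference is read from them.

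**Figure D4:**
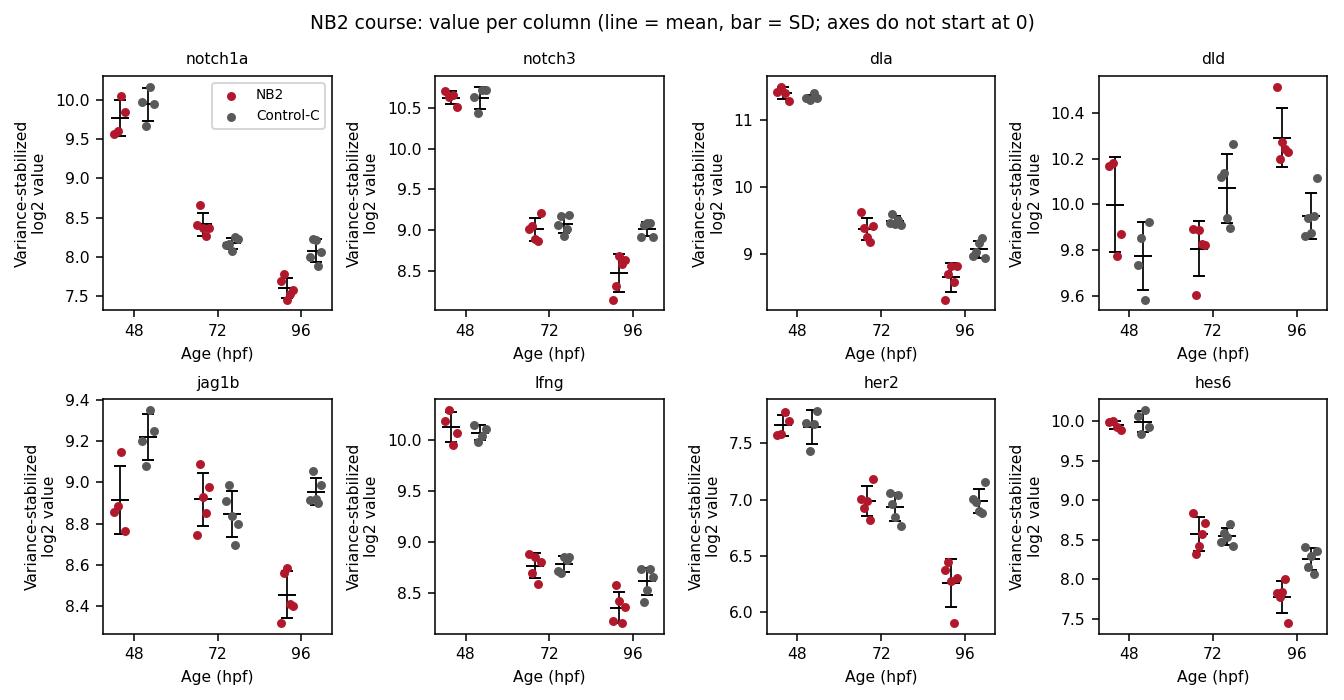
Variance-stabilized log2 value of 8 members in each column of the NB2 course at 48, 72 and 96 hpf, NB2 to the left of Control-C at each age, with the mean as a line and the SD as a bar; axes do not start at 0. Both groups are lower after 48 hpf for notch1a, notch3, dla, lfng, her2 and hes6, and at 96 hpf the NB2 mean lies below the Control-C mean in all panels but dld, where it lies above.

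Most members also fell with age. In unexposed embryos 25 of 39 members were called between 72 and 48 hpf, 24 lower and dld higher, where 25.6% of genes were called (13% higher, 12.6% lower). The steepest were her13 (-2.02 ± 0.21), dlb (-1.93 ± 0.12), dla (-1.85 ± 0.09) and notch1a (-1.76 ± 0.10), as 72 minus 48 hpf (limma, adjusted p of 6.9e-10, 1.8e-15, 2.5e-19 and 8.9e-17). notch2 did not follow, at -0.03 ± 0.07 with no call. Between 96 and 72 hpf 7 members were lower and 0 higher in unexposed embryos, where 17.6% of genes were called (9.77% higher, 7.83% lower). They were dla (-0.43 ± 0.08), dlb (-0.54 ± 0.12), jag1a (-0.37 ± 0.13), her12 (-0.61 ± 0.16), hes2.2 (-0.50 ± 0.16), hes6 (-0.29 ± 0.09) and hey1 (-0.36 ± 0.11). The 96 against 72 hpf calls were lost for jag1a in 6 of 10 leave-outs, for hes6 in 4 and for hes2.2 without Control-C 72 hpf column C or 96 hpf column A (log2 difference -0.56 to -0.41, largest adjusted p = 0.078). The 72 against 48 hpf call was lost for jag2b without Control-C 48 hpf column D or 72 hpf column A (log2 difference -0.40 to -0.27, largest adjusted p = 0.086) and for dld without Control-C 48 hpf column D (log2 difference 0.23 to 0.35, largest adjusted p = 0.076). Over the same step from 48 to 72 hpf, 9 of 12 genes of the proneural and deep progenitor list were lower and 1 was higher (median -1.22). Of 11 neuron genes, 7 were higher and 2 lower (median 0.29). The part of these lists in the member differences was not tested.

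The NB2 effect at 96 hpf differed from that at 72 hpf in 7 members, where 12.2% of genes were called (5.69% higher, 6.5% lower). With the limma adjusted p in parentheses, the interaction was -0.77 ± 0.16 for her2 (0.00068), -0.71 ± 0.14 for notch1a (0.00036), -0.58 ± 0.11 for jag1b (0.00053), -0.51 ± 0.13 for hes6 (0.0088), -0.48 ± 0.12 for notch3 (0.0078) and -0.36 ± 0.10 for notch1b (0.0092). For dld it was 0.61 ± 0.12 (0.0005). NB2 minus Control-C was -0.26 ± 0.08 for dld at 72 hpf, not called, before its rise at 96 hpf. For the other 7 members called at 96 hpf (notch2, dla, dlb, dll4, lfng, her4.1 and hey1) the interaction was not called, and the effect at 96 hpf was not tested against that at 48 hpf. At 96 hpf 10.2% of all genes were lower with NB2 and 8.22% higher. Of 17 genes of the nuclear complex and its corepressors, 6 were lower at that age and 0 higher (median -0.16). Among the 6 was rbpja, the DNA-binding partner of cleaved Notch, at -0.49 ± 0.08 (limma adjusted p = 3.1e-05), named after its values were seen. Of 12 genes of the proneural and deep progenitor list 5 were lower, and of 11 neuron genes 5 were lower and 1 was higher.

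At 48 hpf the same compound was measured in both tables, at 30 µM (PFAS 2) and 73 µM, and neither gave a member call. The 23 symbols written alike in both tables can be set side by side, although the units differ and no test joins the tables. dlb, for example, had a log2 fold change of 0.47 to 1.00 in PFAS 8 to 13 and an NB2 difference of -0.59 at 96 hpf. For her2 the values were 0.18 to 1.84 and -0.72, whereas for dll4 they were 0.38 to 0.78 and 0.33. The NB2 call of dll4 was lost in several leave-outs, as given above.

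**Figure D5:**
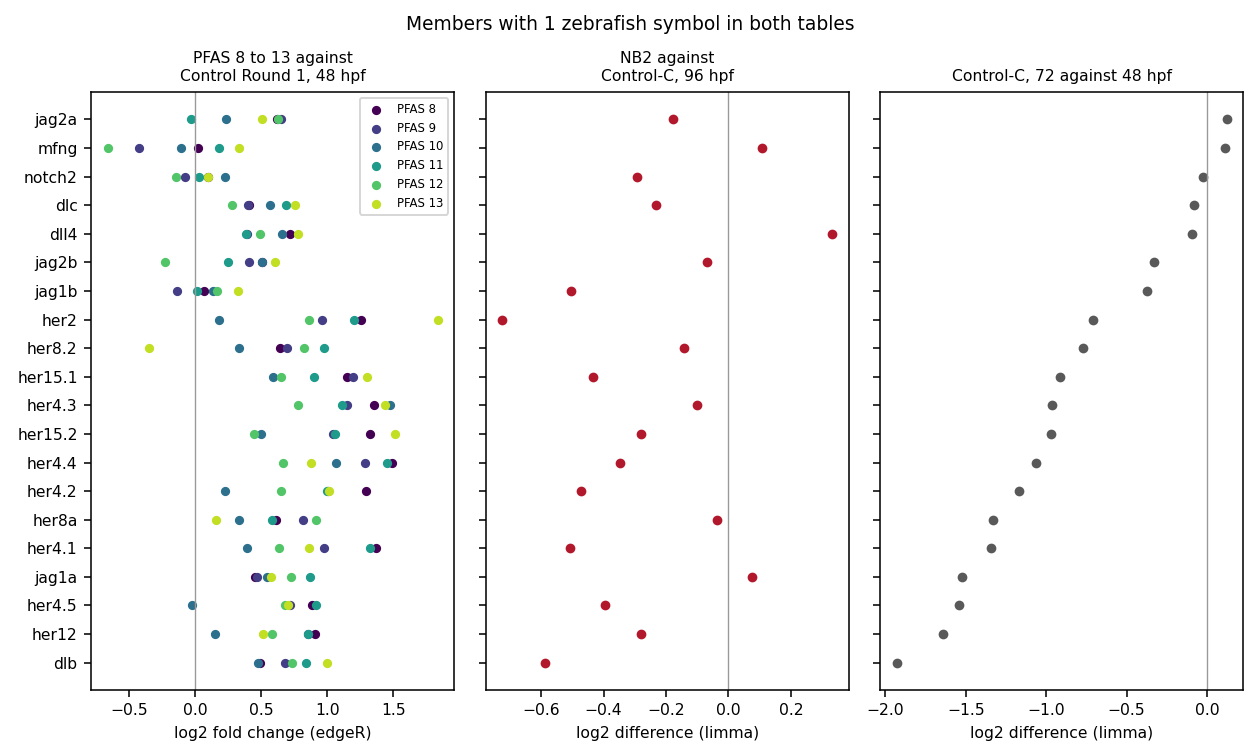
Members whose symbol is written alike in both tables, 1 row a gene (her5, her7 and her11 not drawn): log2 fold change in each of PFAS 8 to 13 at 48 hpf (left), log2 difference NB2 minus Control-C at 96 hpf (middle) and 72 minus 48 hpf in unexposed embryos (right). Most points lie above 0 on the left and below 0 in the other panels, and in the middle panel dll4, jag1a and mfng lie above 0. The gene dlc is drawn, but no NB2 difference is read from it.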

How the data were processed

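RNA of pooled whole embryos was sequenced by the authors with a 3′ kit (Lexogen QuantSeq), aligned to GRCz11 with STAR and counted per gene by strand with HTSeq (versions not given in the sources used here). The deposited counts are raw reads per gene for 2 flow cell runs of each of 70 libraries, which were summed. The authors had already removed genes with no or few counts, so shares of all genes refer to the genes that remained. The deposited values of the NB2 course are variance-stabilized log2 values that the authors made with DESeq2, for 28 columns of 30 samples. No per-sample column was left without a sample (0 columns).

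Counts were tested with edgeR 4.0.16 (R 4.3.3), by the quasi-likelihood test with TMM scaling in 1 fit over 69 libraries and 21928 genes (filterByExpr, minimum count 10, minimum total 15). The log2 values were tested with limma 3.58.1 with a trend over 24853 genes above the lowest value in at least 4 columns. Benjamini-Hochberg adjustment ran over all genes, with a call at 0.05, and errors are standard errors. CPM are TMM-scaled. Both tests were tried on simulated data first. Symbols came from the reference name tables (25504 identifiers of the count table and 23971 of the NB2 table had one), where names in capitals are those of human counterparts.

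Members and lists were chosen with earlier results of these data known. Where a listed name was missing from the count table, every gene under its human counterpart's name was taken, so unlisted paralogs can enter. The 11 listed radial glia and progenitor names thus gave 13 genes, and the 12 neuron names 15. In the NB2 table only the listed zebrafish symbols were taken, which gave 8 and 11 genes. Library values are given for the members of each role called in the most PFAS and for members called in the NB2 course, and list genes called in at least 4 PFAS are named up to 10, pathway partners first. Collection days come from the study's sampling sheet, and deviations from group means correlated at 0.036 within a day and -0.0081 between days (12811 genes, Round 1). For the same and for other replicate numbers the correlation was 0.038 and -0.011 in Round 1 and 0.043 and -0.014 in Round 2. The main fit had no block. Alternatives were DESeq2 1.42.0, RLE scaling, no filter, only the groups compared, single flow cell runs, PFAS 5 replicate 1 included, blocks by day or replicate number, and each sample left out (with a coarser dispersion grid). No 2 libraries were identical (0 pairs). The authors' own fold changes were not used. Python 3.11.15 with pandas 2.3.3 and matplotlib 3.10.9 made the summaries and plots.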

Additional observations from a re-analysis of the deposited data

Results flagged for a closer look

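In 5 of 133 groups tested a single value stood apart from the rest of its group by Dixon's limit, and about 1 in 20 groups does so by chance. DLL1 (ENSDARG00000020219) had 33.6 CPM in Control Round 1 replicate 6, against 24.6 to 27.8 CPM in the other controls. PFAS 11 replicate 4 was high for her2 (31.7 CPM, others 19.5 to 20.6 CPM) and for her15.2 (30.2 CPM, others 12.5 to 13.9 CPM), which are neighbouring genes. HES6 (ENSDARG00000019335) had 92.4 CPM in PFAS 10 replicate 4, against 78.2 to 80.3 CPM in the others. In the NB2 course dld had a value of 10.51 in NB2 column A at 96 hpf, against 10.20 to 10.27 in the other columns.

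The NB2 difference at 96 hpf departed from that at 72 hpf, by the limma interaction term, in 7 of 39 members (17.9%). Of all genes 12.2% were called by that term, and the count of members was not tested against this share. The interaction was -0.71 for notch1a, -0.36 for notch1b, -0.48 for notch3, -0.58 for jag1b, -0.77 for her2, -0.51 for hes6 and 0.61 for dld.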

How the results depend on the processing

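No difference of a called member changed sign under any alternative run. The 1 call of PFAS 6 became 0 in a fit of only the groups compared and with either flow cell run alone, and leaving out 1 library gave 0 to 1. The range of calls on leaving out 1 sample was 17 to 19 (PFAS 8), 15 to 21 (PFAS 9), 12 to 14 (PFAS 10), 19 to 23 (PFAS 11), 13 to 18 (PFAS 12), 21 to 24 (PFAS 13) and 12 to 16 (NB2 at 96 hpf). DESeq2 kept all 121 PFAS calls. RLE scaling lost 2, no filter 3, only the groups compared 7, PFAS 5 replicate 1 included 11, run 64 alone 15 and run 66 alone 23. With collection day as a replicate block 7 calls were lost (members called: PFAS 8 had 18, PFAS 9 19, PFAS 10 14, PFAS 11 22, PFAS 12 17 and PFAS 13 23), and with the replicate number as a block 11. The causes of lost calls were not tested. Groups at 48 hpf held 3 to 6 libraries in the fit, and neither table separates tissues.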
